A study of Homo sapiens with 35 samples.

Results

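The aminoacyl-tRNA synthetases examined here are 36 nuclear genes, of which 20 encode enzymes or enzyme subunits of the cytosol and 16 encode enzymes of mitochondria. They were chosen by name among the 19665 protein-coding entries of the count table, of which 17999 had a count in any library, and all 36 were found there with counts. Mitochondrial enzymes were those whose symbol ends in 2. The symbols are the older ones that the table uses, and 18 of them have since been replaced by a symbol ending in 1 (AARS is now AARS1).

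RNA was sequenced from RPMI-8226, an established human multiple myeloma line, before and after a pulse of carfilzomib, an irreversible inhibitor of the proteasome. Cells received 750 nM carfilzomib for 1 h, were washed and returned to drug-free medium, and were collected on days 1, 2, 4, 6, 8 and 10. The study's methods place the day 0 collection before the drug, although the labels give the treatment for day 0 as well. Each of the 7 days was represented by 5 libraries, 35 in all. The subcultures were split from 1 expanded culture of a single line, so p-values below measure the spread between these subcultures. The same subcultures may have been sampled on each day, and the tests treat the libraries as unpaired. The medium was renewed at regular intervals through the recovery, collections from day 2 on were made just before a renewal, and cell density was readjusted on days 6 and 8. No untreated cultures of the later days were analysed here, so time in culture and time after the drug cannot be told apart.

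Aminoacyl-tRNA synthetases join each amino acid to its tRNA, which is the step that supplies the ribosome with charged tRNA. Human cells keep separate sets of nuclear genes for the cytosol and for mitochondria, and GARS (glycine) and KARS (lysine) each serve both compartments from a single gene. Some of the cytosolic enzymes are held together in a multisynthetase complex, whereas others work alone. Uncharged tRNA activates the kinase GCN2 (gene EIF2AK4), which raises translation of the transcription factor ATF4, and ATF4 is known to induce amino acid biosynthesis genes such as ASNS along with many cytosolic synthetases. Myeloma cells are malignant plasma cells and secrete large amounts of immunoglobulin, so their demand for charged tRNA is high.

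Libraries held 6519392 to 10962890 estimated counts. Levels are given as CPM, protein-coding counts scaled to 1000000 per library with TMM factors, and the change between days as a log2 fold change with its standard error (SE) from edgeR. A gene was called changed at Q ≤ 0.05, where Q is the p-value of edgeR's quasi-likelihood test with Benjamini-Hochberg adjustment over all 17999 entries. The shares of all entries given below include sparse entries, in which a change is harder to call. Of all entries, 12340 passed edgeR's filter for low counts, and shares among entries as abundant as the members were not computed. In bulk RNA, fewer cells that express a gene and less of its RNA per cell cannot be told apart. All 6 plasma cell markers examined (CD38, IRF4, PRDM1, SDC1, TNFRSF17 and XBP1) had counts in every library. Of 6 markers of other cell types, ALB, CD14, CD3E, COL1A1 and PECAM1 stayed at or below 7.94 CPM, and EPCAM, an epithelial marker, was at 43.97 to 95.7 CPM. The share of counts in protein-coding entries was 78.1-80.9% on day 0 and 81.2-84.9% on day 1, and its part in the results on single genes was not tested.

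The letters TGATGNAA are the core of the composite element that ATF4 binds with C/EBP partners, and they were looked for on both strands of RefSeq promoters (GRCh38), each reaching from 250 bases before a gene's start to 50 after it. Promoters were listed for 16 cytosolic and 14 mitochondrial genes. The letters were present in 7 of the 16 cytosolic genes (43.8%) and in 1 of the 14 mitochondrial genes (7.14%), beside 3.62% of all 35116 promoters and 4.46% of the 27305 genes they belong to. The 30 bases around each match are shown because these members include several that fell most. They read 5′ to 3′ on the strand of the gene, with the matched letters in capitals. A match on the opposite strand appears as the reverse complement of these letters.
AARS: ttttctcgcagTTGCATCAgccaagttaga
CARS: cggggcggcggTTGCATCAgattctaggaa
GARS: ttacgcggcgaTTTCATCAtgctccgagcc
IARS: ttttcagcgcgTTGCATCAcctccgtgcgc
MARS: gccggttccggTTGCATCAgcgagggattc
NARS: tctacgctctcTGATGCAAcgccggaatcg
TARS: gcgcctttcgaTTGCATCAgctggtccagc
YARS2: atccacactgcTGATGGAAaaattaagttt
The windows lie at chr16:70289675-70289704 (minus strand) for AARS, chr11:3057407-3057436 (minus strand) for CARS, chr7:30594834-30594863 (plus strand) for GARS and chr9:92293692-92293721 (minus strand) for IARS. Those of MARS, NARS and TARS lie at chr12:57488053-57488082 (plus strand), chr18:57621804-57621833 (minus strand) and chr5:33440956-33440985 (plus strand), and that of YARS2 at chr12:32756076-32756105 (minus strand). In 6 of the 7 cytosolic genes the match fell within 33 bases of the listed start: it began 2, 33, 13 and 4 bases before the start in CARS, GARS, IARS and MARS, and 14 and 2 bases after it in NARS and TARS. In AARS and YARS2 it began 187 and 197 bases before the listed start. These distances hold for the listed RefSeq start only. In GENCODE release 44 the windows of all 7 cytosolic genes lie inside the annotated gene. Of the 7 cytosolic matches, 6 carried the same 8 letters, TGATGCAA or their reverse complement, and GARS differed in 1 letter. The promoters of DARS, LARS, VARS, YARS, AARS2 and VARS2 were not in the table used. Other patterns gave shares near or below those of all genes in the cytosolic list. TGACGTNA was present in 0 of 16, CACGTG in 1 of 16 and TGANNNNGC in 8 of 16, against 3.63%, 8.77% and 47.1% of all genes. In the mitochondrial list they were present in 1, 3 and 6 of 14. A match is a description of the letters and not evidence of binding.

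Before the drug, the cytosolic genes stood far above the mitochondrial ones. Per kilobase of the canonical transcript, day 0 levels were 22.9 to 274.5 CPM (median 107.9) for the 20 cytosolic genes and 2.71 to 58.5 CPM (median 8.59) for the 16 mitochondrial genes. AARS (alanine) and GARS led the cytosolic list, at 274.5 and 268.9 CPM per kilobase. IARS2 (isoleucine) led the mitochondrial list at 58.5, and YARS2 (tyrosine) was lowest at 2.71 CPM per kilobase. FARSB and RARS, at 22.9 CPM per kilobase each, were the lowest of the cytosolic list. Summed over genes, the 20 cytosolic genes made up 6959 ± 254 CPM on day 0, 4794 ± 130 on day 1 and 4328 ± 129 on day 2 (SD, n = 5). The 16 mitochondrial genes made up 595.5 ± 25.2, 732 ± 27.3 and 770.0 ± 22.5 CPM on the same days. The summed cytosolic level was thus lower and the summed mitochondrial level higher after the drug, and for each sum the 5 day 2 libraries lay outside the range of the 5 day 0 libraries.

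Day 1 was compared with day 0 to see how the charging enzymes stood after the pulse, and the cytosolic and mitochondrial lists moved apart. Of 20 cytosolic genes, 14 fell and 5 rose, where 27.3% of all entries fell and 25.4% rose. Of 16 mitochondrial genes, 12 rose and 2 fell. The median log2 fold change was -0.55 for the cytosolic list, 0.68 for the mitochondrial list and -0.061 for all entries. On day 2, 14 cytosolic genes were lower and 5 higher than on day 0, and 1 mitochondrial gene was lower and 11 were higher, beside 24.4% lower and 23.2% higher among all entries. The medians were -0.65, 0.39 and -0.039. The same 14 cytosolic genes were lower on both days: AARS, CARS, DARS, EPRS, GARS, IARS, LARS, MARS, NARS, QARS, SARS, TARS, WARS and YARS. The day 2 call of DARS was lost without scaling factors (edgeR adjusted p = 0.0777). That of HARS2 was lost in 8 fits with 1 library left out (edgeR adjusted p up to 0.135). With RLE size factors, or with DESeq2 in place of edgeR, the day 2 mitochondrial split was 10 higher and 2 lower. Past 2-fold were 4 lower and 1 higher cytosolic and 4 higher mitochondrial genes on day 1, where 13.2% of all entries were lower and 7.27% higher past 2-fold. On day 2 there were 7 lower cytosolic and 3 higher mitochondrial genes past 2-fold, beside 8.94% lower and 6.32% higher.

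**Figure D1:**
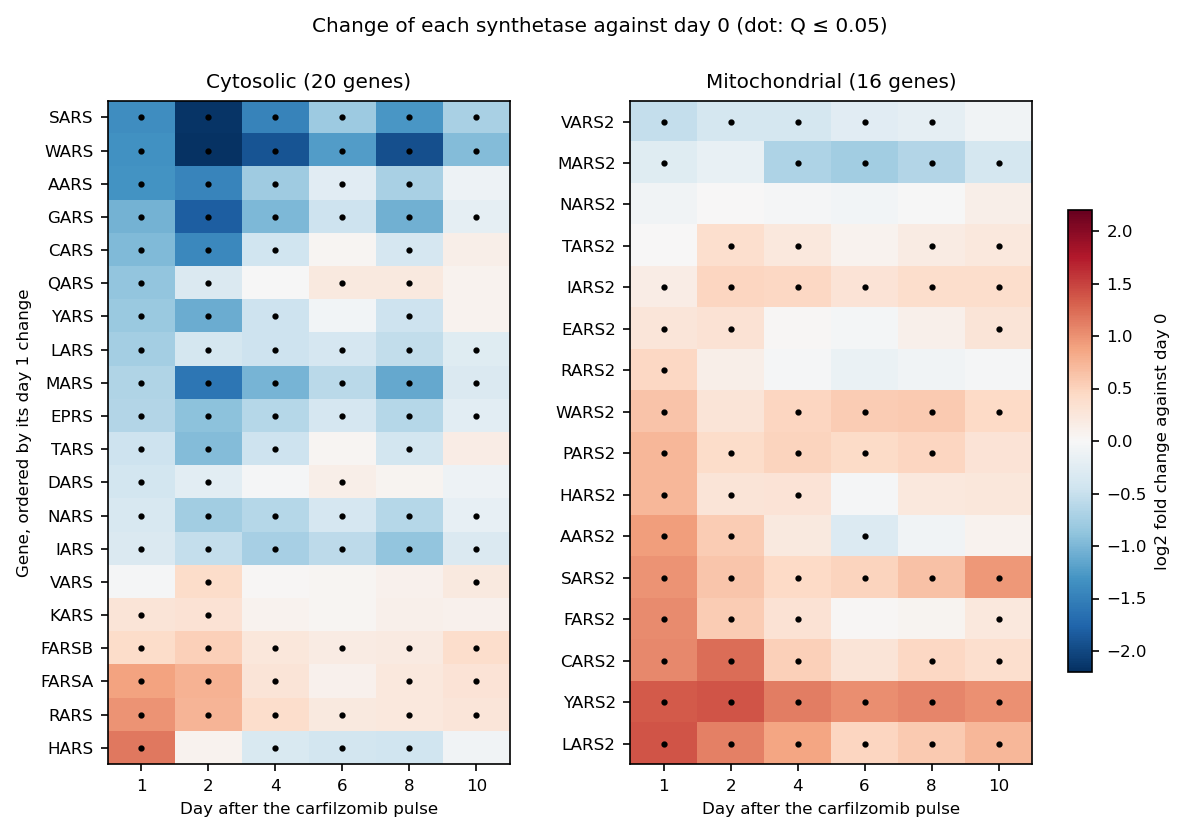
Colour gives the log2 fold change of each gene against day 0 on the 6 later days, for 20 cytosolic and 16 mitochondrial synthetases ordered by their day 1 change, and a dot marks Q ≤ 0.05. On day 1, 14 cytosolic genes were called lower and 12 mitochondrial genes higher.

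SARS, the serine enzyme, and WARS, the tryptophan enzyme, fell most. SARS was at 265, 261, 233, 276 and 279 CPM in the 5 day 0 libraries, at 104, 97.1, 101.3, 106 and 102 CPM on day 1 and at 62.3, 58.9, 57.7, 56.6 and 58.8 CPM on day 2. WARS was at 343, 358, 310.5, 359.7 and 362 CPM on day 0, at 129, 137, 138, 143 and 140.5 on day 1 and at 73.3, 77.1, 80.9, 78.0 and 75.5 on day 2. For each gene, every day 1 library was below every day 0 library, and every day 2 library was below every day 1 library. The day 1 changes were -1.36 ± 0.073 for SARS and -1.34 ± 0.079 for WARS (edgeR adjusted p = 7.80e-20 and 2.05e-18). By day 2 they had reached -2.16 ± 0.075 and -2.17 ± 0.081 (edgeR adjusted p = 1.07e-25 and 1.26e-24). Neither promoter held TGATGNAA.

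AARS was at 950, 924, 882, 976 and 986 CPM on day 0, at 350.3, 398, 407, 364 and 383 on day 1 and at 356, 348, 350.4, 330.4 and 335 on day 2. Its fall was almost complete by day 1, with changes of -1.31 ± 0.072 and -1.46 ± 0.072 on the first 2 days, and days 1 and 2 did not differ past the threshold (log2 fold change -0.14 ± 0.072, edgeR adjusted p = 0.113). GARS, which charges tRNA in both compartments, was at 640.3, 635, 618, 685 and 699 CPM on day 0, 317, 307, 335, 323 and 319 on day 1 and 189.6, 189, 186, 190.2 and 180 on day 2. The fall of GARS went on from day 1 to day 2 (log2 fold change -0.78 ± 0.070, edgeR adjusted p = 1.88e-12), to -1.81 ± 0.070 against day 0. MARS, the methionine enzyme, followed the same course at 373, 389.9, 325, 416 and 371 CPM on day 0, 240.1, 234, 231, 246 and 232 on day 1 and 134, 123, 117, 122 and 127 on day 2. Its change went from -0.66 ± 0.070 on day 1 to -1.59 ± 0.072 on day 2, and its libraries of the 3 days did not overlap. CARS, the cysteine enzyme, was less abundant, at 114, 103, 99.6, 85.2 and 109.9 CPM on day 0, 53.2, 53.0, 49.4, 49.6 and 57.2 on day 1 and 41.8, 38.5, 36.5, 37.0 and 37.9 on day 2. Its change was -0.96 ± 0.089 on day 1 and -1.42 ± 0.090 on day 2.

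The threonine and tyrosine enzymes fell as well. TARS was at 95.1, 106, 90.98, 122 and 95.3 CPM on day 0, 65.3, 80.3, 69.8, 82.3 and 74.6 on day 1 and 41.0, 69.4, 48.8, 46.1 and 56.3 on day 2, and its day 2 libraries were widely spread. YARS was at 285, 299.9, 267, 336 and 322 CPM on day 0, 167, 170, 179, 179 and 159 on day 1 and 150.4, 146, 134, 139 and 138 on day 2. The day 2 changes were -0.95 ± 0.11 for TARS and -1.09 ± 0.078 for YARS, and on day 2 no library of either gene overlapped day 0. Counts of YARS outside its coding entry averaged 1819 per library on day 0 and 511.6 on day 1, beside 1752 and 1052 in that entry. QARS, the glutamine enzyme, went the other way between the first 2 days. It was at 226, 230.4, 218, 243 and 210.4 CPM on day 0, 118, 118, 138, 133 and 113 on day 1 and 202, 190, 172, 165 and 179 on day 2. QARS was thus lower on both days (-0.86 ± 0.070 and -0.31 ± 0.068) but rose from day 1 to day 2 by 0.55 ± 0.069 (edgeR adjusted p = 1.12e-08). The 9 synthetases described so far (SARS, WARS, AARS, GARS, MARS, CARS, TARS, YARS and QARS) are those that the study itself names. It picked them from these libraries, so their shared direction, 9 of 9 lower on day 1 and on day 2, is not independent evidence.

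Members of the multisynthetase complex moved in both directions. The 8 complex genes in the list are DARS (aspartate), EPRS (glutamate and proline), IARS (isoleucine), KARS, LARS (leucine), MARS, QARS and RARS (arginine). On day 1, 6 of them fell and KARS and RARS rose, with a list median of -0.53, and of the 12 cytosolic genes outside it 8 fell and 3 rose, with a median of -0.64. On day 2 the medians were -0.35 inside and -1.02 outside the complex, with the same numbers of genes called in each direction as on day 1. EPRS, which carries 2 enzyme activities on a single chain, went from 1152 ± 48.7 CPM on day 0 to 734 ± 27.0 on day 1 and 618 ± 16.6 on day 2 (SD, n = 5). IARS fell by less, from 395 ± 12.3 to 318 ± 9.73 and 274 ± 10.6 CPM. LARS and DARS were lowest on day 1, at 183 ± 8.396 and 139 ± 7.91 CPM against 309.6 ± 10.9 and 184 ± 8.17 on day 0, and both had risen again by day 2 (0.38 ± 0.044 and 0.17 ± 0.052 from day 1). The structural proteins of the complex are AIMP1, AIMP2 and EEF1E1. AIMP1 was lower on day 1 (-0.18 ± 0.066) and AIMP2 higher (0.43 ± 0.10), whereas EEF1E1 changed by 0.091 ± 0.054 (edgeR adjusted p = 0.158) on day 1 and was lower on days 4 to 10 (-0.63 ± 0.056 on day 4). AIMP1 was lower on days 4 to 10 as well (-0.36 ± 0.067 on day 4), and on day 6 all 3 were lower, with -0.29 ± 0.11 for AIMP2.

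Cytosolic genes that rose on day 1 were HARS (histidine), RARS, FARSA and FARSB (the subunits of the phenylalanine enzyme) and KARS. HARS was at 77.1, 57.4, 64.0, 58.3 and 59.5 CPM on day 0, 138, 135, 141, 145 and 148 on day 1 and 60.9, 69.9, 66.0, 62.6 and 76.4 on day 2. Its coding entry was the only cytosolic one past 2-fold upward (1.16 ± 0.076, edgeR adjusted p = 5.94e-17). Its retained-intron counts went the other way, averaging 141 per library on day 0 and 82.4 on day 1. The rise of its coding entry had gone by day 2 (0.081 ± 0.077, edgeR adjusted p = 0.408). On days 4, 6 and 8 HARS was below day 0, with log2 fold changes of -0.34, -0.40 and -0.45. RARS was at 44.02, 50.9, 46.3, 47.7 and 54.5 CPM on day 0, 81.3, 104, 95.5, 95.2 and 105 on day 1 and 84.2, 83.1, 80.0, 78.8 and 81.3 on day 2, with a day 1 change of 0.98 ± 0.068. RARS stayed above day 0 on all 6 later days, with Q ≤ 0.05 each time, and its levels settled at 50.4 to 66.1 CPM on day 10. Leaving out day 0 replicate 1 ended its day 6 call (edgeR adjusted p = 0.0523), as did summing biotypes (0.0595).

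FARSA and FARSB form 1 enzyme, yet their RNAs rose unequally. FARSA was at 89.7, 97.3, 77.9, 93.0 and 93.9 CPM on day 0 and at 162, 174, 159, 171 and 172 CPM on day 1, a change of 0.89 ± 0.059. FARSB was at 152, 147, 148, 163 and 162 CPM on day 0 and at 184, 190, 225, 216 and 204 CPM on day 1, a change of 0.40 ± 0.055. The log2 ratio of FARSA to FARSB counts within a library rose from -0.78 ± 0.12 on day 0 to -0.28 ± 0.15 on day 1 (SD, n = 5, exact two-sided permutation test, adjusted p = 0.0121), and every day 1 library was above every day 0 library. By day 10 it was -0.86 ± 0.14 (exact permutation test, adjusted p = 0.359). KARS, the other gene that serves both compartments, moved opposite to GARS. It was at 291, 279, 279, 311 and 291 CPM on day 0 and 319.6, 361, 361, 363 and 368 on day 1, a rise of 0.29 ± 0.055. Its day 1 replicate 1 lay below the other 4 day 1 libraries but above every day 0 library. VARS (valine) did not pass the threshold on day 1 (-0.020 ± 0.053, edgeR adjusted p = 0.806), then stood at 699 ± 46.6 CPM on day 2 against 527 ± 23.7 on day 0, a rise of 0.41 ± 0.053.

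**Figure D2:**
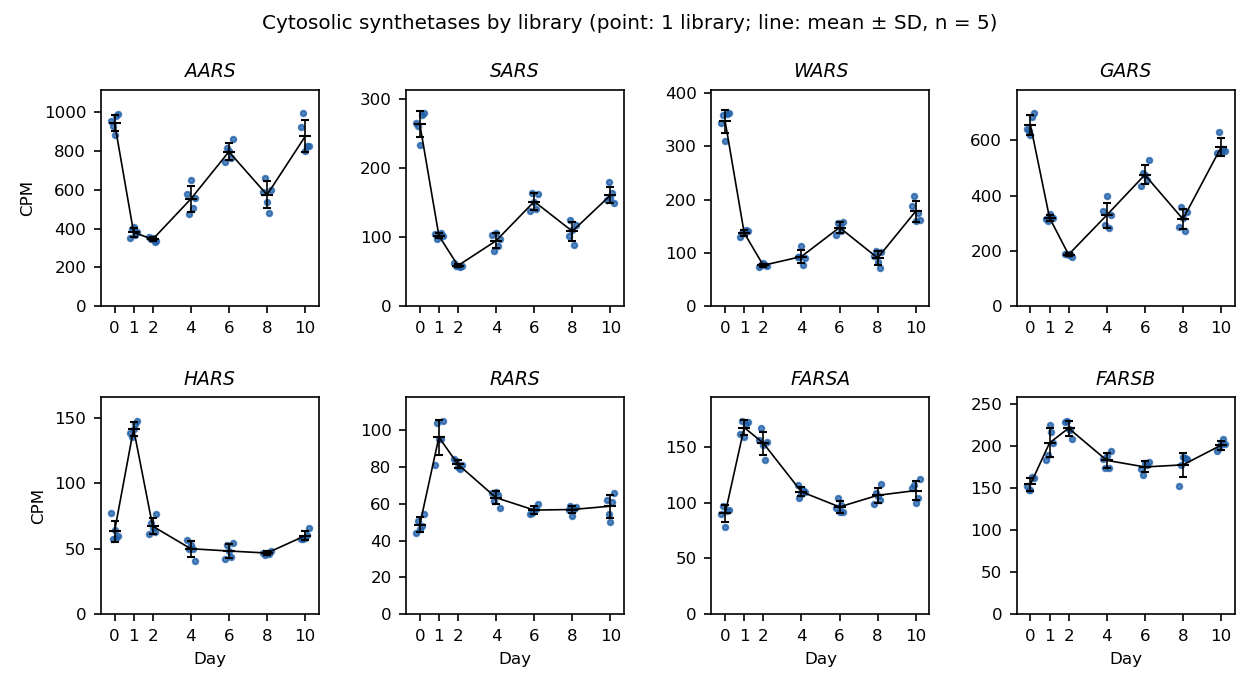
CPM of 8 cytosolic synthetases by day (linear axes from 0), with 1 point per library and the mean ± SD of 5 libraries. AARS, SARS, WARS and GARS (upper row) fell on day 1, whereas HARS, RARS, FARSA and FARSB (lower row) rose.

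Among mitochondrial enzymes the largest rises were those of LARS2 (leucine), YARS2 and CARS2 (cysteine). LARS2 was at 16.6, 18.2, 16.1, 18.04 and 15.0 CPM on day 0, 39.4, 43.9, 42.2, 49.6 and 43.96 on day 1 and 37.0, 34.6, 36.4, 38.7 and 34.9 on day 2. YARS2 was at 3.80, 4.76, 5.90, 8.22 and 5.97 CPM on day 0, 15.4, 14.2, 12.2, 13.4 and 16.2 on day 1 and 14.6, 13.7, 13.3, 15.7 and 16.2 on day 2. CARS2 was at 15.5, 12.8, 8.94, 14.4 and 12.1 CPM on day 0, 29.1, 26.3, 28.4, 25.7 and 24.2 on day 1 and 31.7, 34.5, 26.0, 25.9 and 32.2 on day 2. For all 3 genes, every library of days 1 and 2 lay above every day 0 library. Their day 1 changes were 1.38 ± 0.089, 1.34 ± 0.16 and 1.06 ± 0.14, and FARS2 (phenylalanine) was the fourth past 2-fold at 1.04 ± 0.088, where 7.27% of all entries rose past 2-fold. The rise of CARS2 was 0.27 when counts were summed over all biotypes (edgeR adjusted p = 0.00483), and its retained-intron counts averaged 161.6 per library on day 0 and 131 on day 1. YARS2 was among the least abundant members, with a mean of 32.4 counts per day 0 library, so its estimates carry a wider error than those of AARS at 5501.

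SARS2 (serine), AARS2 (alanine), HARS2 (histidine), PARS2 (proline) and WARS2 (tryptophan) also rose on day 1, by 0.99, 0.92, 0.73, 0.73 and 0.63 on the log2 scale. RARS2 (arginine), EARS2 (glutamate) and IARS2 rose by less, at 0.45 ± 0.12, 0.27 ± 0.088 and 0.17 ± 0.056. SARS2 was at 7.59, 5.40, 6.08, 8.02 and 4.04 CPM on day 0 and 13.1, 12.3, 11.2, 13.9 and 11.5 on day 1, with no overlap. IARS2, the most abundant mitochondrial member, was at 215, 198, 189, 216 and 214 CPM on day 0 and at 209, 221, 246, 243 and 239 on day 1, where the groups overlapped, and at 289.9, 295, 295, 255 and 301 on day 2, where they did not. Its day 1 call was lost without day 0 replicate 2 (edgeR adjusted p = 0.0514). TARS2 (threonine) had not changed past the threshold on day 1 (0.010 ± 0.064) and was higher on day 2 (0.37 ± 0.062).

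HARS and HARS2 are neighbours on chromosome 5 and are transcribed away from each other, and in GENCODE release 44 their annotated 5′ ends overlap by 108 bases. HARS2 was at 26.0, 26.0, 21.4, 26.2 and 28.1 CPM on day 0 and at 53.7, 33.7, 44.7, 43.0 and 37.0 CPM on day 1, a rise of 0.73 ± 0.11 beside 1.16 ± 0.076 for HARS. Both genes were therefore higher on day 1. The library kit keeps strand, but the strand setting of the counting is not given in the sources used here, and reads in the overlap could be assigned to either gene.

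The mitochondrial genes that did not rise on day 1 were VARS2 (valine), MARS2 (methionine), NARS2 (asparagine) and TARS2. VARS2 was at 40.9, 45.1, 37.2, 34.7 and 42.2 CPM on day 0 and 29.1, 29.1, 25.7, 26.4 and 28.2 on day 1, and these libraries did not overlap (log2 fold change -0.53 ± 0.073). MARS2 was at 52.9, 59.8, 54.9, 62.7 and 54.7 CPM on day 0, 42.6, 46.9, 44.9, 51.8 and 49.4 on day 1 and 50.2, 51.9, 51.4, 50.3 and 51.3 on day 2. The day 1 change of MARS2 was -0.27 ± 0.072 (edgeR adjusted p = 0.00131), and this call was lost without scaling factors. NARS2 was at 42.8, 40.5, 39.9, 41.5 and 47.0 CPM on day 0 and 34.99, 40.0, 38.8, 44.2 and 41.8 on day 1 and was not called on any later day (-0.084 ± 0.074 on day 1 and 0.13 ± 0.073 on day 10).

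**Figure D3:**
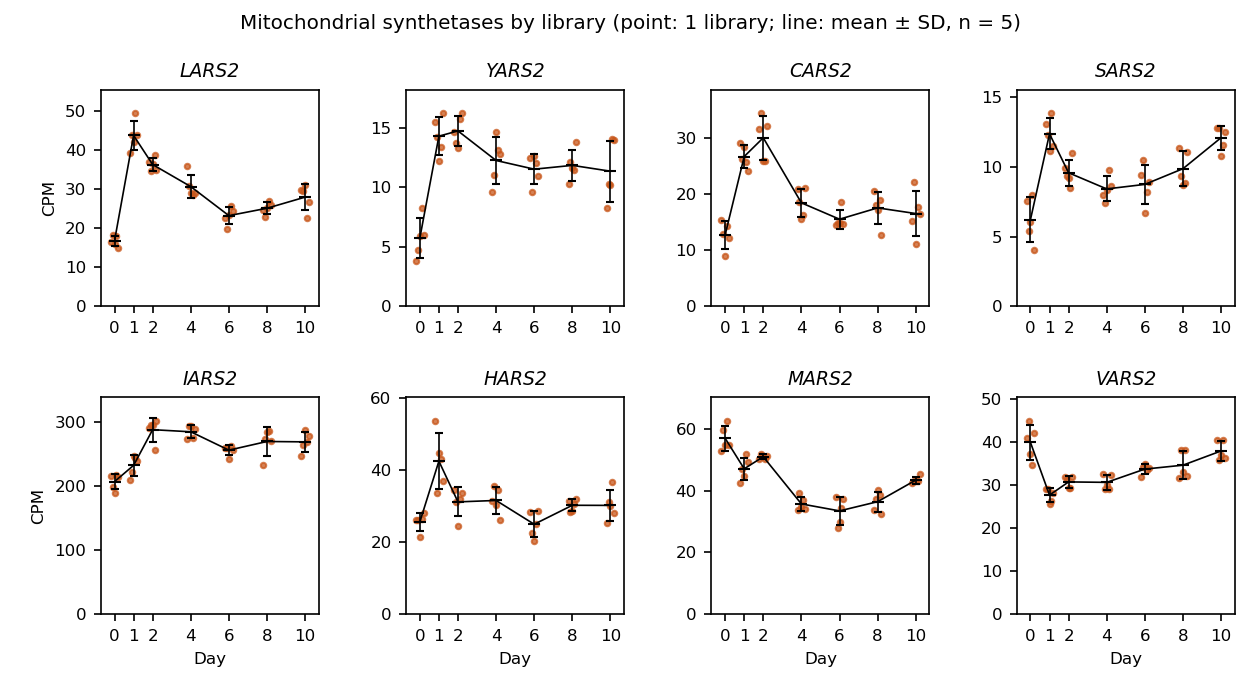
CPM of 8 mitochondrial synthetases by day (linear axes from 0), with 1 point per library and the mean ± SD of 5 libraries. LARS2, YARS2, CARS2 and SARS2 (upper row) rose on day 1, and MARS2 and VARS2 (last panels) fell.

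Ratios of the cytosolic to the mitochondrial enzyme of the same amino acid were compared within each library, where no scaling factor enters. There were 17 such pairs. EPRS is in the pairs with EARS2 and PARS2, and FARS2 in those with FARSA and FARSB, so the pairs are not all independent. A difference was tested by an exact two-sided permutation test of 5 against 5 libraries (smallest possible p = 0.00794), with adjustment over 108 tests. On day 1 the log2 ratio was lower in 13 pairs and higher in 2, with a median change of -0.64. On day 2 it was lower in 12 and higher in 2, with a median change of -1.31. Among coding entries, the log2 ratio of SARS to SARS2 fell most, from 5.42 ± 0.42 on day 0 to 3.04 ± 0.11 on day 1 and 2.61 ± 0.12 on day 2 (SD, n = 5, exact permutation test, adjusted p = 0.0121 on each day). With counts summed over all biotypes it changed by -2.10 on day 1 and -2.47 on day 2. YARS to YARS2 then fell most on day 1 (-2.38) and changed by -2.47 on day 2. CARS to CARS2 went from 3.01 ± 0.34 to 0.36 ± 0.16 on day 2 (-2.65), and with counts summed over all biotypes it changed by -1.77. The ratio rose for RARS to RARS2, by 0.53 on day 1, and for VARS to VARS2, by 0.50. In the RARS pair both RNAs rose, and in the VARS pair VARS2 fell while VARS was not called.

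FARSA to FARS2 changed by -0.14 on day 1 (exact permutation test, adjusted p = 0.186) and HARS to HARS2 by 0.45 (exact permutation test, adjusted p = 0.0529). These were the pairs that missed the threshold on day 1. On day 10, 8 of the 17 ratios were still lower and 2 higher than on day 0, with a median change of -0.30. With counts summed over all biotypes 9 were lower and 0 higher. The ratios of AARS, CARS, MARS and TARS to their mitochondrial counterparts no longer differed past the threshold, with changes of -0.20, -0.23, 0.066 and -0.083. SARS to SARS2 and WARS to WARS2 remained lower, with changes of -1.70 and -1.38 (exact permutation test, adjusted p = 0.0121 for each).

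**Figure D4:**
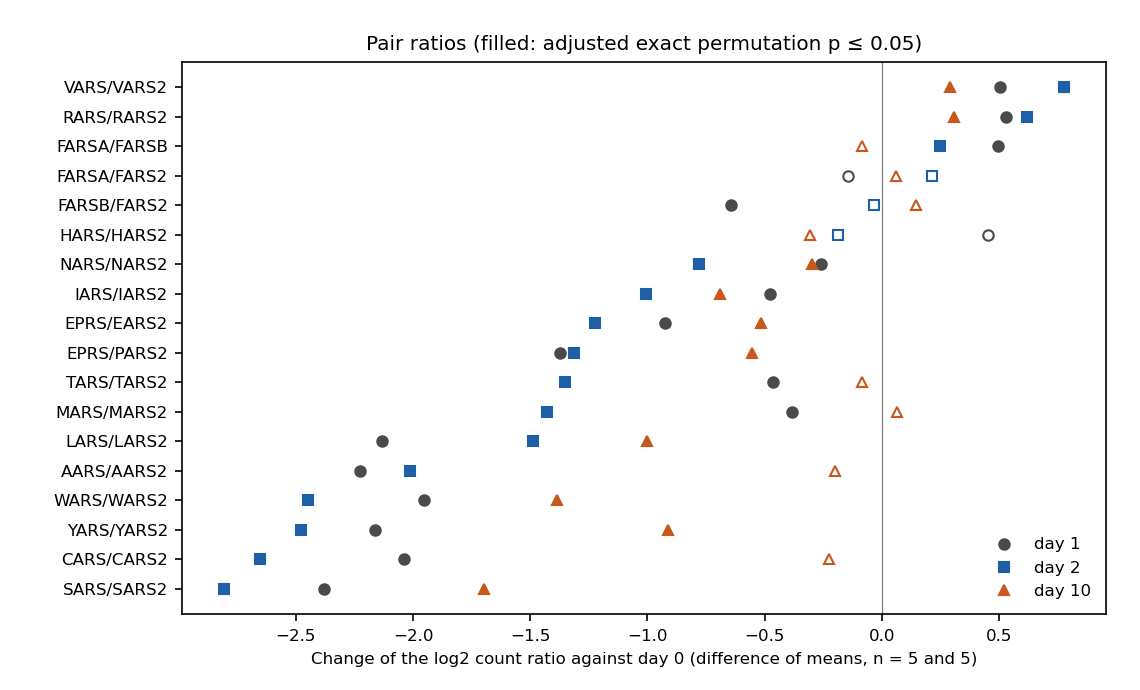
Change of the log2 count ratio against day 0 on days 1, 2 and 10 for 17 pairs of a cytosolic and a mitochondrial enzyme and for the 2 subunits FARSA and FARSB. Filled symbols passed the adjusted exact permutation test, and SARS/SARS2 lay farthest left at -2.38 on day 1 and -2.80 on day 2.

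Later days showed a partial return. On day 4, 13 cytosolic genes were below day 0 and 3 above it, and 10 mitochondrial genes were above and 2 below (all entries 20.1% lower and 19.0% higher). On day 6 these numbers were 10 and 4 cytosolic and 6 and 3 mitochondrial (all entries 17.0% lower and 17.5% higher). On day 8 they were 13 and 4 cytosolic and 8 and 2 mitochondrial (18.6% and 18.2%). By day 10, 8 cytosolic genes were still lower and 4 higher, and 9 mitochondrial genes were higher and 1 lower, beside 15.8% and 16.1% of all entries. The median log2 fold change of the cytosolic list was -0.45, -0.15, -0.45 and -0.094 on days 4, 6, 8 and 10, and that of the mitochondrial list 0.31, 0.051, 0.21 and 0.26. Over all entries it was -0.022, 0.00, -0.0094 and -0.015.

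Few members stayed past 2-fold. On day 4 these were MARS, SARS and WARS among the lower genes, beside 5.29% of all entries, and YARS2 among the higher ones, beside 4.12%. On day 6 WARS was the 1 gene lower past 2-fold (3.52% of all entries) and YARS2 the 1 higher (3.18%). On day 8 GARS, MARS, SARS and WARS were lower past 2-fold (4.58%) and YARS2 higher (3.60%). On day 10 no cytosolic gene was past 2-fold (3.52% of all entries lower), and YARS2 was the 1 mitochondrial gene that was (2.41% higher).

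EPRS, GARS, IARS, LARS, MARS, NARS, SARS and WARS were below day 0 on all 6 later days. All 6 comparisons use the same day 0 libraries, and the share of all entries lower on every day was not computed. On day 10 WARS was at 188, 207, 160.5, 175 and 162 CPM and SARS at 154, 179, 157, 164 and 149 CPM, both still below every day 0 library (-0.96 ± 0.077 and -0.71 ± 0.070). MARS was at 301, 337, 293, 270.3 and 297 CPM on day 10 (-0.32 ± 0.069), and these libraries overlapped those of day 0. GARS stood at -0.19 ± 0.067 against day 0 (edgeR adjusted p = 0.0265), a call that ended in 5 of the 10 fits with 1 library left out, without scaling factors (0.129) and with summed biotypes (0.127). AARS had come back to 921, 994, 799.8, 824 and 826 CPM and no longer passed the threshold (-0.11 ± 0.070, edgeR adjusted p = 0.242). The coding entries of CARS, TARS and YARS had their highest mean on day 10, at 112 ± 11.4, 114 ± 18.4 and 318 ± 23.0 CPM, without a call against day 0. With counts summed over all biotypes YARS was lower on day 10 (-0.22, edgeR adjusted p = 0.000531). Above day 0 on day 10 were FARSB at 195, 198, 202, 209 and 203 CPM (0.38 ± 0.054), FARSA at 113, 116, 99.5, 104 and 122 CPM (0.30 ± 0.060) and RARS at 61.9, 54.5, 50.4, 60.8 and 66.1 CPM (0.27 ± 0.070). VARS was the other cytosolic gene higher on day 10 (0.22 ± 0.053).

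IARS2, LARS2, SARS2 and YARS2 were above day 0 on all 6 later days, and no mitochondrial gene was below it on all of them. These comparisons share the day 0 libraries as well, and the share of all entries higher on every day was not computed. YARS2 was at 8.27, 10.2, 10.2, 14.1 and 13.95 CPM on day 10 and SARS2 at 12.8, 12.8, 10.8, 11.6 and 12.5 CPM, every library above every day 0 library, with changes of 1.01 ± 0.16 and 0.95 ± 0.14. LARS2 was at 29.9, 29.5, 31.2, 22.6 and 26.8 CPM on day 10 (0.73 ± 0.092), likewise with no overlap. The day 4 call of SARS2 was lost without day 0 replicate 5 or without day 4 replicate 4 (edgeR adjusted p up to 0.0645). Its day 4 and day 6 calls were also lost with counts summed over biotypes (edgeR adjusted p = 0.422 and 0.17) and with only the libraries of the 2 days compared (0.0718 and 0.053). MARS2 was lower on days 4 to 10 and stood at 42.4, 43.2, 43.1, 43.1 and 45.4 CPM on day 10 (-0.39 ± 0.073), below every day 0 library. VARS2 was at 40.4, 35.8, 37.0, 40.5 and 36.2 CPM and RARS2 at 14.1, 15.5, 18.4, 19.9 and 21.2 CPM on day 10, and neither was called (-0.078 ± 0.071 and -0.026 ± 0.12).

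Comparison of consecutive time points showed that a block of cytosolic genes rose, fell and rose again between days 4 and 10. From day 1 to day 2, 12 cytosolic genes fell and 4 rose, and 8 mitochondrial genes fell and 2 rose (all entries 19.4% lower and 20.2% higher). From day 2 to day 4, 12 cytosolic genes rose and 7 fell, and 6 mitochondrial genes fell (all entries 13.9% higher and 16.7% lower). From day 4 to day 6, 13 cytosolic genes rose and 1 fell, and 4 mitochondrial genes fell (all entries 6.09% higher and 5.98% lower). Without scaling factors that split was 10 higher and 2 lower cytosolic and 6 lower mitochondrial genes. With 1 library left out, 14 to 17 of all members were called in this step, against 18 with every library. The call of DARS was lost in 9 of these fits. From day 6 to day 8, 12 cytosolic genes fell, 0 rose and no mitochondrial gene was called in either direction, where 1.53% of all entries fell and 1.03% rose. From day 8 to day 10, 14 cytosolic genes rose and 1 fell, and 1 mitochondrial gene rose (all entries 5.08% higher and 4.97% lower). Past 2-fold, HARS from day 1 to day 2 was the 1 member in any of the 5 steps (-1.08 ± 0.074), where 10.3%, 3.09%, 0.628%, 0.128% and 0.678% of all entries passed in the steps to days 2, 4, 6, 8 and 10. Adjacent steps share the libraries of the day between them, so their directions are not independent of each other.

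The 12 genes that fell from day 6 to day 8 were AARS, CARS, EPRS, GARS, IARS, LARS, MARS, NARS, SARS, TARS, WARS and YARS, and all 12 rose from day 8 to day 10. GARS was at 434, 483, 474, 457 and 527 CPM on day 6, at 287, 358, 318, 272 and 342 on day 8 and at 556, 631, 557, 569 and 560.4 on day 10. WARS was at 134, 156, 149.8, 141 and 159 CPM on day 6 and at 94.3, 104, 83.2, 71.3 and 101.3 CPM on day 8. MARS was at 242, 248, 231, 237 and 279.8 CPM on day 6 and at 168, 192, 163, 149 and 186 CPM on day 8. For these 3 genes the day 8 libraries lay below both neighbouring days without overlap. The changes from day 6 to day 8 were -0.70 ± 0.081 for WARS, -0.59 ± 0.068 for GARS and -0.53 ± 0.071 for MARS, and those from day 8 to day 10 were 0.98 ± 0.081, 0.87 ± 0.068 and 0.80 ± 0.071. AARS stood at 744, 812, 797, 761 and 858 CPM on day 6 and 589.8, 660.5, 536, 478 and 600.3 on day 8 (-0.47 ± 0.070, edgeR adjusted p = 1.85e-05). LARS had the smallest fall of the 12 (-0.18 ± 0.043, edgeR adjusted p = 0.0115).

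All 7 cytosolic genes whose promoter held TGATGNAA were among these 12, and of the 9 with a listed promoter that lacked it, EPRS, SARS and WARS were. Over all entries 1.53% fell in that step. Against day 0 the 7 were lower on day 1 and on day 2 without exception. The 9 divided into 5 higher and 4 lower on day 1, and 4 higher, 4 lower and 1 not called on day 2. Among all entries 27.3% were lower and 25.4% higher on day 1, and 24.4% and 23.2% on day 2. The median change from day 6 to day 8 was -0.43 for the 7 and 0.0012 for the 9. YARS2, the mitochondrial gene with the letters, rose on day 1 and changed by 0.037 ± 0.15 from day 6 to day 8. No test was made of these groups, since the letters were looked for with the changes known.

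Libraries of a day moved together across these 12 genes. On day 6, replicate 5 had the highest value of the 5 libraries in 10 of the 12, on day 8 replicate 4 had the lowest in 9 and replicate 2 the highest in 10 of the 12, and on day 10 replicate 2 had the highest in 11 of the 12. The 12 genes are therefore not 12 independent observations of the change between days. Without day 8 replicate 4, or without day 6 replicate 5, 10 of the 12 were still called lower, and LARS and TARS were not (edgeR adjusted p up to 0.0759 and 0.0731). LARS was also lost with only the libraries of the 2 days compared (0.0906).

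**Figure D5:**
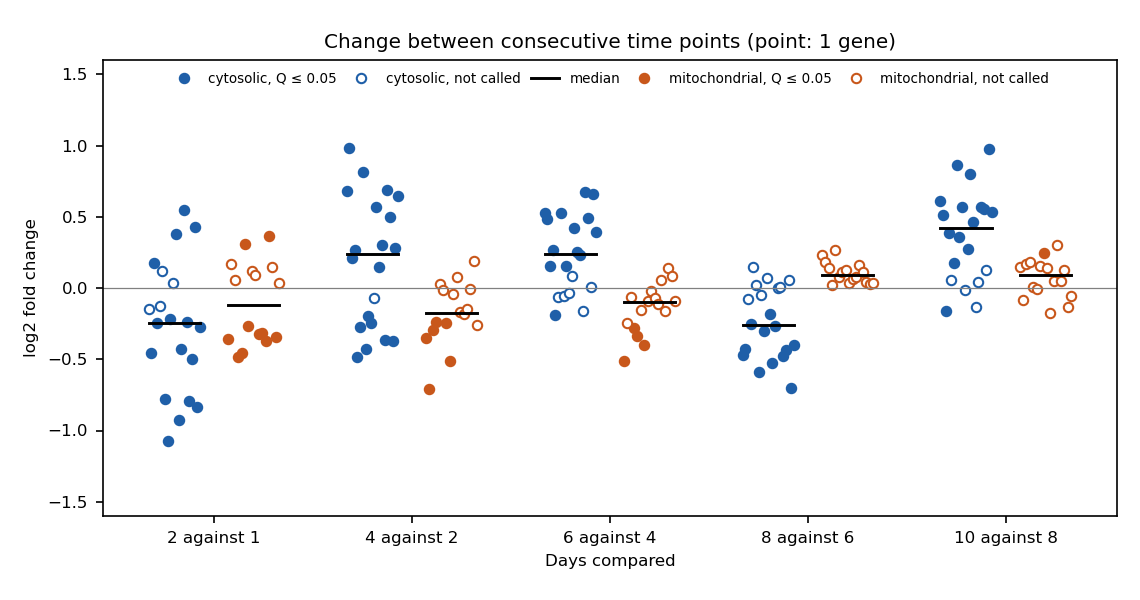
Log2 fold change between consecutive time points, with 1 point per gene, filled where Q ≤ 0.05, and a black line at the median of each list. From day 6 to day 8, 12 cytosolic genes fell and no mitochondrial gene was called.

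The count table splits each gene symbol by the biotype of its transcripts, so that a protein-coding entry can move when transcripts change form. The share of a symbol's counts in its protein-coding entry could be tested for 26 members with at least 10 counts per library in other biotypes. On day 1 it was higher in every library than in any day 0 library in 8 of the 26 (FARSA, HARS, IARS, MARS, NARS, RARS, YARS and CARS2) and lower in 0. Of all 6292 symbols that met the same minimum, 17.9% were higher without overlap and 2.75% lower, so most shifts were upward across the table, and the share of counts in coding entries of whole libraries was higher too. The median change was 4.89 percentage points over the 26 members and 2.37 over all symbols. None of the 8 passed after adjustment over all symbols (exact two-sided permutation test, p = 0.00794 and adjusted p = 0.0506 for each). CARS2 had the largest difference, from 29.99% ± 6.97 of its counts on day 0 to 54.8% ± 3.97 on day 1 (SD, n = 5), with retained-intron transcripts at 64.1% and 43.1%. HARS went from 67.3% ± 4.93 to 89.1% ± 2.87, with retained-intron transcripts at 25.8% and 8.31%. YARS went from 49.6% ± 5.72 to 67.3% ± 2.19, and its other counts were all processed transcripts without a coding annotation.

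On day 10 the coding share lay above every day 0 library in HARS (82.4% ± 3.89), VARS (91.9% ± 0.90), YARS (62.9% ± 2.85) and SARS2 (83.7% ± 6.36), and below in 0 of 26. Over all symbols 9.08% were higher without overlap and 1.68% lower, and the whole libraries had 80.4-82.7% of counts in coding entries against 78.1-80.9% on day 0. None of the 4 passed after adjustment over all symbols (exact two-sided permutation test, adjusted p = 0.0506 for each), and neither did any other symbol. Summing all biotypes of a symbol changed some results. CARS2 then rose by 0.27 on day 1 and 0.28 on day 2 (edgeR adjusted p = 0.00483 and 0.00274), where its coding entry gave 1.06 and 1.23. YARS was then lower on day 10 (-0.22, edgeR adjusted p = 0.000531), whereas its coding entry stood at 0.077 ± 0.076 (edgeR adjusted p = 0.485). HARS was then lower on day 2 (-0.17, edgeR adjusted p = 0.0165), whereas its coding entry stood at 0.081 ± 0.077. On day 1 the numbers called were 19 cytosolic and 14 mitochondrial genes by either way of counting.

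Other genes of tRNA charging were counted as a fixed list of 11. On day 1, 5 rose and 4 fell, where 25.4% of all entries rose and 27.3% fell. QRSL1, GATB and GATC, the subunits of the amidotransferase that makes mitochondrial glutaminyl-tRNA, rose by 1.01 ± 0.12, 1.21 ± 0.18 and 0.22 ± 0.073. QRSL1 was at 12.4, 12.2, 11.3, 8.42 and 9.43 CPM on day 0 and 22.4, 20.3, 23.2, 23.3 and 20.0 on day 1, without overlap, and stayed higher on all 6 later days. AARSD1, an editing protein for mischarged alanine tRNA, rose by 0.95 ± 0.079, and DTD2, another editing factor, by 0.47 ± 0.14. DTD1, PSTK, SEPSECS and TARSL2 fell. TARSL2, a second cytosolic threonine enzyme, changed by -0.98 ± 0.15 on day 1 and was lower on all 6 later days. PSTK and SEPSECS, which make selenocysteinyl-tRNA, were both sparse, with means of 2.67 and 16.1 CPM on day 0. MTFMT and TRNT1 were not called on day 1.

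Genes of the GCN2 and ATF4 axis are given for comparison, as 8 genes: ASNS, ATF3, ATF4, CHAC1, DDIT3, EIF2AK4, SESN2 and TRIB3. The study names ASNS, ATF4, CHAC1, DDIT3, EIF2AK4 and SESN2 from a transcript cluster of these libraries, so their shared direction is not independent evidence. All 8 were lower than day 0 on days 1, 2 and 4 (all entries 27.3%, 24.4% and 20.1% lower), with medians of -2.26, -3.21 and -1.80. On days 6, 8 and 10, 6, 7 and 7 were lower (all entries 17.0%, 18.6% and 15.8%), and CHAC1 was higher on day 6. The medians were then -0.86, -1.53 and -0.89, beside -0.094 for the cytosolic synthetases on day 10. On day 10, 4 of the 8 were lower past 2-fold, beside 3.52% of all entries. ASNS, asparagine synthetase, was at 619.8, 613, 588, 656 and 630.1 CPM on day 0, 157, 159, 166, 174 and 168 on day 1 and 80.8, 90.4, 83.7, 94.5 and 84.8 on day 2. All 8 rose from day 2 to day 4 and again from day 4 to day 6 (all entries 13.9% and 6.09% higher). From day 6 to day 8, 5 of the 8 fell (ASNS, ATF4, DDIT3, SESN2 and TRIB3), beside 1.53% of all entries, and from day 8 to day 10, 5 rose and 1 fell, beside 5.08% higher and 4.97% lower. ASNS changed by -0.82 ± 0.064 from day 6 to day 8 and by 0.98 ± 0.065 from day 8 to day 10, beside -0.48 ± 0.072 and 0.57 ± 0.073 for SARS. These genes and the synthetases were measured in the same libraries, and the relation between them was not tested.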

How the data were processed

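RNA was sequenced from 35 libraries, 5 for each of 7 days. The authors quantified reads against GENCODE transcripts (GRCh38.p12) with Kallisto 0.44.0 and adjusted for GC content and transcript length, and they deposited estimated counts, rounded to whole numbers, for each symbol and biotype. Their notes also name DESeq2 1.25.8 and R 3.5.0. Groups follow the day given in the labels.

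The 17999 protein-coding entries that had counts were analysed with edgeR 4.0.16 (R 4.3.3) by the quasi-likelihood F-test with TMM factors and day as a factor, and p-values were adjusted by Benjamini-Hochberg over all entries (Q ≤ 0.05). In simulated data for day 1 against day 0 with 16615 genes, the test called 100 of 100 genes altered 4-fold and 72 of 100 altered 1.5-fold. It also called 8 of 16415 left unaltered. The altered genes had random directions, excluded sparse genes and were far fewer than the entries called in the data. These rates therefore may not hold for sparse genes or for changes as widespread as those on day 1. Ratios of paired genes and coding shares were compared with exact permutation tests in Python 3.11.15, with a prior count of 0.5 added to each count of a ratio. DESeq2 1.42.0, other scalings, filters, summed biotypes and left-out libraries were alternatives. Replicate numbers were not used to pair the libraries, and whether a number marks the same subculture on each day is not known. Counts of 6519392 to 10962890 per library limit the precision for the least abundant members. Lengths and gene positions came from GENCODE release 44, and 18 members were matched through an older symbol.

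All 36 members were counted. Given in full were the 3 genes with the largest and the 3 with the smallest change per list on days 1 and 10, the genes that serve both compartments, the neighbours HARS and HARS2, the subunits FARSA and FARSB, and the synthetases the study names. The members, the gene lists and the promoter letters were chosen with earlier results of these data known.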

Additional observations from a re-analysis of the deposited data

Results flagged for a closer look

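Of 252 groups of 5 libraries (36 members on 7 days), 11 held a library whose gap to its nearest neighbour, divided by the range of the group, exceeded Dixon's critical value of 0.71, where chance gives about 12.6. Among cytosolic genes, FARSB on day 8 was at 152.8 CPM in replicate 1, against 177.7 to 187.7 in the other 4 libraries. IARS on day 4 was at 222.9 CPM in replicate 2, against 239.7 to 246.4, and KARS on day 1 was at 319.6 CPM in replicate 1, against 360.9 to 367.6. Day 10 replicate 2 stood above the others for GARS, at 631.1 CPM against 555.6 to 568.6, and for TARS, at 145.2 CPM against 97.7 to 110.8.

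Among mitochondrial genes, AARS2 on day 4 was at 30.9 CPM in replicate 4, against 21.7 to 23.1, and CARS2 on day 6 was at 18.65 CPM in replicate 4, against 14.6 to 14.9. IARS2 was at 254.9 CPM in day 2 replicate 4, against 289.9 to 301.4, and at 231.7 CPM in day 8 replicate 1, against 270.4 to 285.9. MARS2 on day 10 was at 45.39 CPM in replicate 5, against 42.4 to 43.2, and NARS2 on day 6 was at 44.23 CPM in replicate 5, against 39.4 to 40.2.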

How the results depend on the processing

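Of 396 single-gene results (36 members in 11 comparisons), 390 kept their direction and side of the threshold with filterByExpr, 390 with RLE size factors, 388 with DESeq2, 378 with only the libraries of the 2 days compared, 368 without scaling factors and 366 with counts summed over biotypes. Without scaling factors 10 calls were lost and 18 gained, and the median log2 fold change of 12340 entries was 0.12, 0.13 and 0.10 on days 1, 2 and 4. With summed biotypes, 4 results turned: HARS on day 2 (-0.17), CARS2 on day 4 (-0.068), HARS2 on day 6 (0.19) and YARS on day 10 (-0.22). With the added requirement of a 2-fold change, the cytosolic genes called against day 0 numbered 5, 7, 3, 1, 4 and 0 on days 1, 2, 4, 6, 8 and 10, the mitochondrial genes 4, 3, 1, 1, 1 and 1, and all 36 members 1, 0, 0, 0 and 0 in the 5 consecutive steps. By construction this requirement can only remove calls.

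Leaving out 1 library in turn kept 3808 of 3960 single-gene results. Genes called then ranged from 19 to 19 cytosolic and 13 to 14 mitochondrial on day 1, from 7 to 10 mitochondrial on day 10, and from 10 to 12 of all members from day 6 to day 8. The coding share passed in 8 members on day 1 and 4 on day 10 when adjusted over 52 tests of members. It passed in 0 and 0 when adjusted over 12584 tests of all symbols, where no symbol passed, an alternative chosen after seeing the data. With a minimum of 50 counts in other biotypes it passed in 5 members on day 1. With 1 library left out it passed in 0 to 0 members on day 1 and 0 to 6 on day 10, where 4 against 5 libraries allow no p below 0.0159 before adjustment over 52 tests.

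With the replicate number as a block, 394 of 396 results were kept (FARS2 on day 10 was lost and FARSB from day 1 to day 2 gained). Same-numbered libraries showed little likeness between days: correlations of deviations between them ran from -0.12 to 0.14 over 105 pairs, with 2 over 0.1, and the best match had the same number in 48 of 210 comparisons. Such values cannot show whether these libraries came from the same subculture. The block was not run for pair ratios, since sign changes of 5 pairs cannot reach the threshold.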

Other observations

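The protein-coding entries whose mean log2 CPM over the 7 days was most like that of AARS, by Pearson correlation among 12340 entries, were SHMT2 (0.9935), GPT2 (0.9933), EIF2S2 (0.989), ZNF460 (0.9882) and SLC6A9 (0.9878). SHMT2 encodes mitochondrial serine hydroxymethyltransferase, GPT2 a mitochondrial alanine transaminase and SLC6A9 a glycine transporter. These values rest on 7 day means that share the same libraries, and are given as a description only.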
